A study of Mus musculus with 6 samples.

Results

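The genes described here encode the laminin chains and the integrin subunits, the matrix proteins and receptors through which gut cells hold to basement membrane and matrix. They were taken by name: each line of the deposited table whose symbol matched 1 of 35 chosen genes was used, which gave 10 laminin chains and 25 integrin subunits among 23233 gene lines. The list does not hold every gene of these families. The study measured polyadenylated RNA of whole guts dissected from mouse embryos at E10.5, with 3 wildtype samples and 3 samples that lack Ret on both alleles. C57BL/6J is given as the strain of both genotypes, and all embryos are described as male. The labels name neither the null allele nor the number of embryos in a sample.

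A laminin is a trimer of an alpha, a beta and a gamma chain that polymerises into the sheet of a basement membrane, and its alpha chain carries most of the sites that cells bind. An integrin is a pair of an alpha and a beta subunit that spans the membrane, binds matrix or another cell outside, and is linked to actin inside. Neural crest cells, which invade the embryonic gut and form its nervous system, move along matrix with integrins that contain the beta1 subunit. Ret is the receptor tyrosine kinase that lets these cells answer GDNF family ligands.

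The table holds a single FPKM value per genotype, that is, fragments mapped to a gene scaled for transcript length and library size, so levels of different genes can be compared. It has no value per sample, so the spread between replicates and the read depth are unknown. The authors' Cuffdiff test gave a q-value for 13430 lines. A gene is said to rise or fall in Ret null gut only where the authors' deposited table gives q under 0.05, and the error after ± is the standard error implied by the log2 fold change and the authors' test statistic. Several members share the lowest q that the authors' deposited table holds, 0.000775, and calls printed below without a q have that value. Values with ± are log2 fold changes, Ret null over wildtype.

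Ret fell from 8.80 to 0.0354 FPKM (q = 0.0042 in the authors' deposited table), as its label requires. Xist, which is transcribed from an inactive X chromosome, had 0.136 FPKM in wildtype but 31.8 FPKM without Ret, against the male label, and the Y-linked genes Ddx3y, Kdm5d, Uty and Eif2s3y were 1.64-fold to 1.99-fold lower. Defining genes of gut were present in both genotypes, with Foxf1 of gut mesenchyme at 51.3 and 124 FPKM and Epcam of epithelium at 26.4 and 59.1 FPKM. Marker lists of other tissues also differed between the genotypes. The summed level of 10 liver markers was 23.4 (wildtype) and 316 FPKM (Ret null), and that of 10 skeletal muscle and somite markers 75.5 and 5.03 FPKM. Below, the first of a pair of levels is wildtype and the second Ret null. The part of sex and of tissue makeup in the values below was not tested. In bulk RNA, fewer cells of a type and less RNA per cell cannot be told apart.

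Most calls fell on alpha partners, 3 lower and 1 higher among laminin alpha chains and 4 lower and 2 higher among integrin alpha subunits, and the abundant beta and gamma partners did not pass. Of the 27 members that the authors tested, 8 fell, 4 rose and 15 did not pass, so 44.4% were called, against 14.6% of all tested genes. Of all tested genes at 5 FPKM or more 12.5% were called, but the 44.4% covers tested members at any level. Falls took in Lama1, Lama2, Lama4, Lamc3, Itga4, Itga8, Itga9 and Itgav, and rises Lama5, Lamb3, Itga3 and Itga5. Across all tested genes 8.88% fell and 5.69% rose. The median log2 fold change was -0.18 over the 27 tested members and 0.01 over all tested genes. The other 8 members, all under 1 FPKM in both genotypes, were not tested, so the counts cover the tested members alone. Apart from Lamb3 and Itga4 the called changes were smaller than 2-fold. A second p (the normal p) was computed by reading the deposited statistic as a standard normal value, adjusted by Benjamini-Hochberg over all genes with a statistic. From the Cuffdiff statistics of the authors' deposited table, this normal p left 2 members lower and 0 higher, Itga4 with an adjusted value of 7.6e-05 and Lama4 with 0.0481. Of all genes 4.5% passed with it, 2.78% lower and 1.72% higher. At an unadjusted normal p under 0.05, 5 members were lower and 4 higher, against 897 lower and 580 higher among all 13422 genes with this p.

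**Figure D1:**
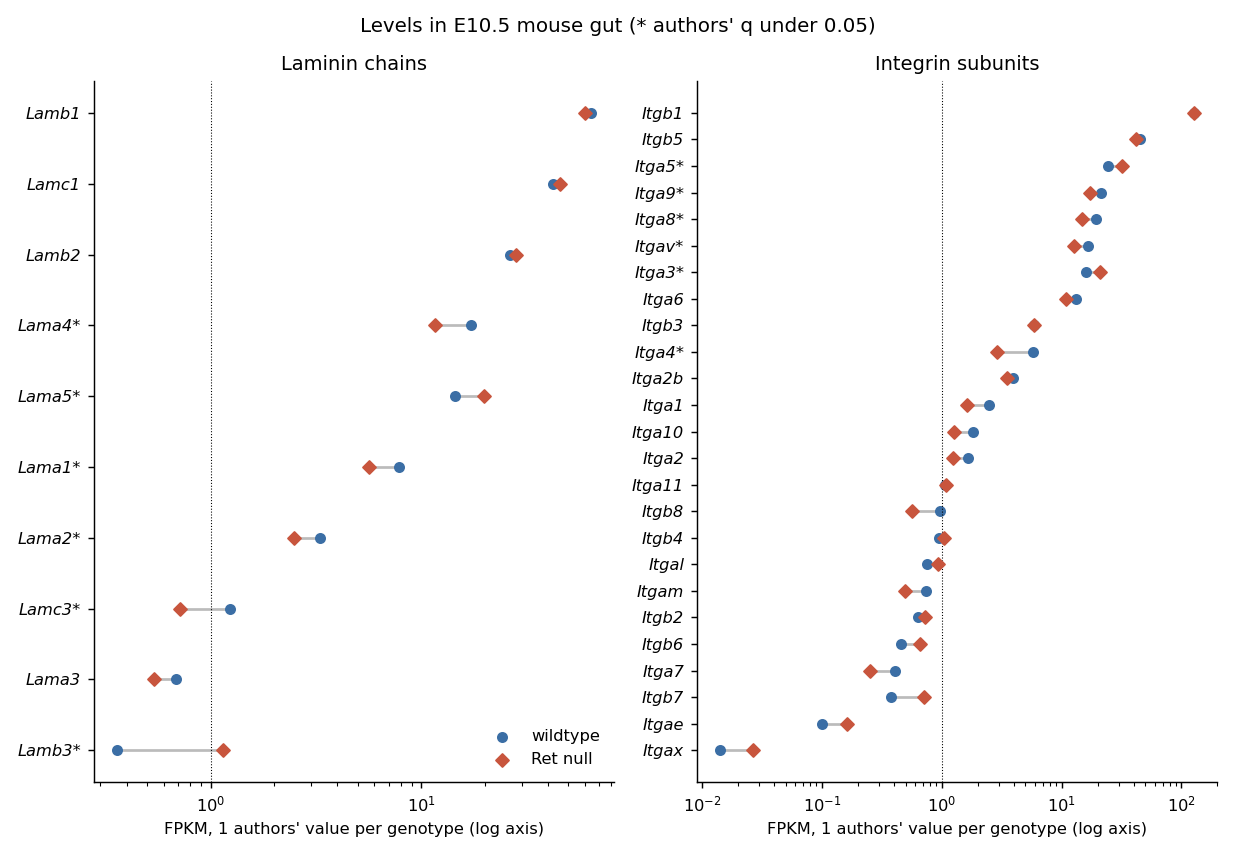
Authors' FPKM values of the 10 laminin chains (left) and 25 integrin subunits (right) on a log axis, with a blue circle for wildtype, a red diamond for Ret null and an asterisk for q under 0.05. The dotted line marks 1 FPKM. The highest genes (Itgb1, Lamb1, Itgb5, Lamc1) have nearly coincident points, and the separated pairs lie lower, such as Itga4 at 5.79 and 2.88 FPKM.

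**Figure D2:**
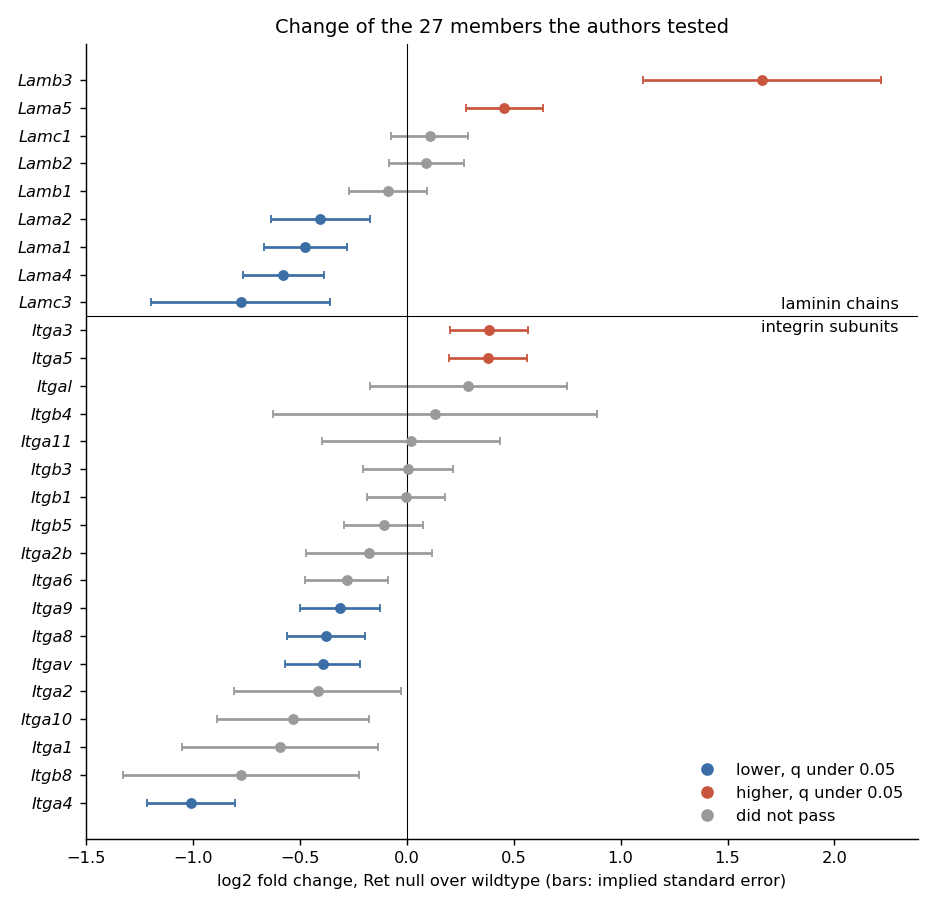
Log2 fold change, Ret null over wildtype, of the 27 tested members, laminin chains above the line and integrin subunits below it. Bars are the implied standard error. Blue members fell, red members rose and grey members did not pass. Itga4 (-1.01) lies farthest to the left and Lamb3 (1.66), which has one of the widest errors, farthest to the right.

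Promoters are shown for a pair of members that fell, Itga4 and Itgav, and a pair that rose, Lama5 and Itga5. Each is the run of 250 bases before a transcript start in RefSeq (GRCm38.p6, the build also called mm10), written 5′ to 3′ on the strand of the gene. For Itgav and Lama5 the annotated gene starts further upstream on chromosome 2, at 83722303 (plus strand) and 180225904 (minus strand). Capitals mark the GC box, the hexamer GGGCGG or its reverse complement CCGCCC, which Sp family factors bind.
Itga4: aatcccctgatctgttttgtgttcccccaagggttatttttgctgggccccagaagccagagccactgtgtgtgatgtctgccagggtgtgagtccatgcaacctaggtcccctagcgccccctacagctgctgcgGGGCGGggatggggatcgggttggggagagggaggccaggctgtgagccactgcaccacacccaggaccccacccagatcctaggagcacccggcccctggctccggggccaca
Itgav: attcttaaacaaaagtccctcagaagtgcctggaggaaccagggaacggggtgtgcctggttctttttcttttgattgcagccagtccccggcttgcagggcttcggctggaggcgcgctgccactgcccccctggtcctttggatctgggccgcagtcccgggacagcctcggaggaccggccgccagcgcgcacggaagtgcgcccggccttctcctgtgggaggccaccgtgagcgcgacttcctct
Lama5: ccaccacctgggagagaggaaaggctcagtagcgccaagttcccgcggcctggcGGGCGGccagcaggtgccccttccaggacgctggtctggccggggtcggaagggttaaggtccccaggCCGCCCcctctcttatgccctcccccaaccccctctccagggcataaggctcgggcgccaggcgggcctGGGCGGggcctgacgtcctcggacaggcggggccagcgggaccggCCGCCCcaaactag
Itga5: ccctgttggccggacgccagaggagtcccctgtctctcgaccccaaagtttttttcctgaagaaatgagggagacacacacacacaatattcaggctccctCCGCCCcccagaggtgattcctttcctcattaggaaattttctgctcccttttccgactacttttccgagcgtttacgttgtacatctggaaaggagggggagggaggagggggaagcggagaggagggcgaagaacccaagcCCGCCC
The 4 runs lie at chr2:79255176-79255425 (plus strand), chr2:83724147-83724396 (plus), chr2:180225860-180226109 (minus) and chr15:103366792-103367041 (minus). Lama5 holds 4 GC boxes, Itga5 holds 2, Itga4 holds 1 and Itgav holds 0. Of the other called members with a sequence, Lamb3, which rose, holds 0 at both of its start sites. Itga3, which also rose, holds 3 and 1, and Itga8, Itga9 and Lama2, which fell, hold 0. Whether GC boxes go with the direction of change was not tested. RefSeq sequences were found for 23 of the 35 members, with 26 start sites. A GC box was present at 34.6% of these and at 32.7% of 32851 mouse start sites. The CCAAT box (CCAAT or ATTGG) was present at 15.4% of member sites and 33.8% of all sites, and the TATA box (TATAAA or TTTATA) at 0 of 26 and 12.4%. These letters are a description of the windows, and no binding was measured.

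The leading laminin alpha transcript differed between the genotypes. Lama5, the alpha chain typical of epithelial basement membranes, rose from 14.4 to 19.8 FPKM (log2 fold change 0.46 ± 0.18). Lama4, the chain of vessel walls and mesenchyme, fell from 17.3 to 11.6 FPKM (-0.58 ± 0.19). Lama4 was the highest alpha chain in wildtype and Lama5 the highest in Ret null gut, and the ratio of Lama5 to Lama4 was 0.835 and 1.71. Whether the levels of these 2 genes differ within a genotype was not tested. Lama1, an alpha chain of early embryonic basement membranes, fell from 7.88 to 5.67 FPKM (-0.47 ± 0.19). Lama2, best known from the sheath of muscle fibres, fell from 3.29 to 2.49 FPKM (-0.40 ± 0.23, q = 0.0255 in the authors' deposited table). Lama3, a chain of stratified and other epithelia, stood at 0.684 and 0.536 FPKM and was not tested by the authors. Every tested alpha chain was thus called, 3 lower and 1 higher.

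As a class the alpha chains summed to 43.6 and 40.1 FPKM. Within that sum the share of Lama5 was 33.1% and 49.4%, that of Lama4 39.7% and 28.9%, that of Lama1 18.1% and 14.2%, and that of Lama2 7.56% and 6.21%. The total in Ret null gut was 0.920 of that in wildtype, and the share of Lama5 was 16.3 percentage points higher. These shares carry no error, since the table has no value per sample.

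Beside these chains the epithelial marker list was higher and the endothelial list partly lower in Ret null gut. Of 10 epithelium and endoderm markers 9 rose, and the list summed to 166 and 337 FPKM, with Krt8 at 29.0 and 65.6 FPKM and none at 0. Of 9 endothelial markers 3 fell and 0 rose, and the list summed to 208 and 174 FPKM, with Cdh5 at 37.6 and 36.2 FPKM, Emcn at 32.4 and 21.03 FPKM and none at 0. At an unadjusted p under 0.05 in the authors' deposited table, 4 endothelial markers were lower and 0 higher, and none passed with the normal p. The part of these markers in the laminin values was not tested.

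**Figure D3:**
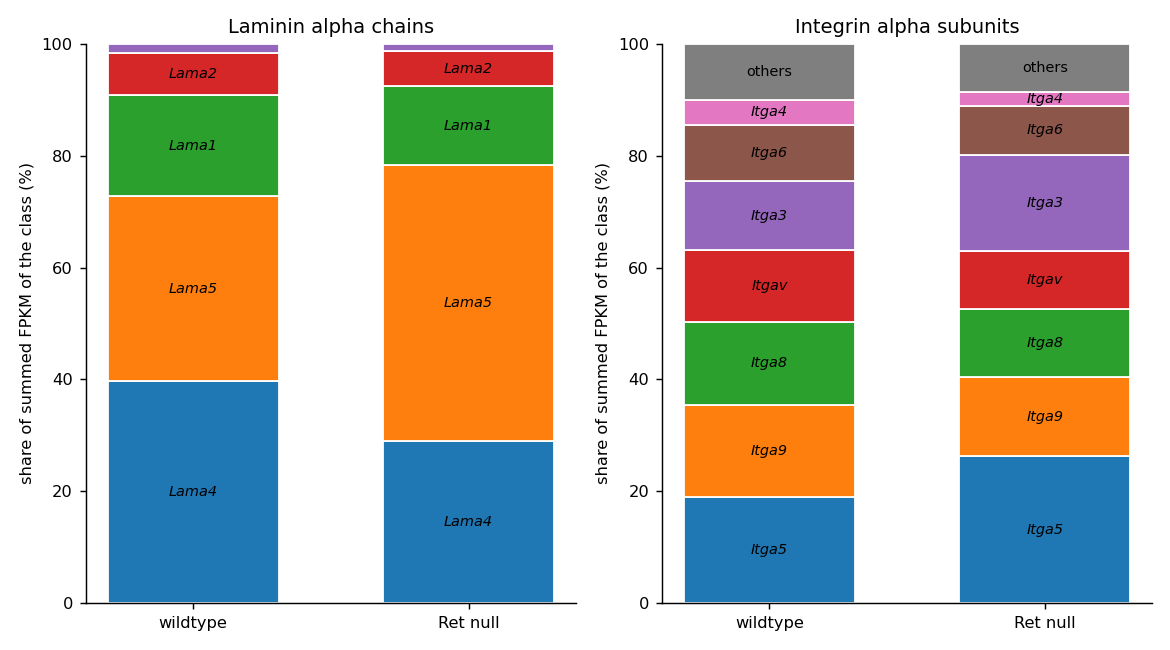
Share of the summed FPKM of the 5 laminin alpha chains (left) and of the 17 integrin alpha subunits (right) in each genotype, in percent. The unlabelled thin band at the top left is Lama3, and integrin subunits under 4% in wildtype are grouped as others. Lama5 widens from 33.1% to 49.4% and Itga5 from 18.9% to 26.2%.

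Beta and gamma chains complete the trimer, and their main genes did not pass. Lamb1, the most common beta chain of embryonic laminins, stood at 63.8 and 60.0 FPKM (-0.09 ± 0.18). Lamb2, the alternative beta chain, stood at 26.4 and 28.2 FPKM (0.09 ± 0.18). Lamc1, the gamma chain of most laminins, stood at 42.3 and 45.6 FPKM (0.11 ± 0.18). None of these passed, with q between 0.643 and 0.729 in the authors' deposited table. Lamc1 made up 97.2% of the gamma chain sum in wildtype and 98.4% in Ret null gut. The sum of the alpha chains, 43.6 FPKM in wildtype, lay close to that of the gamma chains, 43.6 FPKM, and the beta chains summed to 90.6 FPKM.

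The 2 minor chains that were called had low levels. Lamb3, the beta chain of the epithelial laminin that anchors hemidesmosomes, rose from 0.361 to 1.14 FPKM (1.66 ± 0.56). With 1 FPKM added to both genotypes its log2 fold change was 0.65. Lama3, its alpha partner in that trimer, was not tested. Itgb4, the integrin subunit of hemidesmosomes, stood at 0.958 and 1.05 FPKM (0.13 ± 0.76) and did not pass. Lamc3, a minor gamma chain, fell from 1.23 to 0.720 FPKM (-0.78 ± 0.42, q = 0.0167 in the authors' deposited table). An antisense gene shares 6.27% of its exon bases, and one shares 3.30% of those of Lama2.

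In the integrins, Itga4 had the largest called change. Its product pairs with beta1 or beta7, binds fibronectin and VCAM1, and is carried by migrating neural crest cells and by blood cells. Itga4 fell from 5.79 to 2.88 FPKM, 2.01-fold (-1.01 ± 0.21), and with 1 FPKM added its log2 fold change was -0.81. The line starts at 79255426 on chromosome 2 (mm10) and runs to 79428988, past the annotated end of Itga4 at 79333114 and over Cerkl, a gene on the other strand. Exons of the 2 genes share 8.04% of Itga4's exon bases. Cerkl, whose line has the same start and end, was listed at 0.184 and 0.162 FPKM and was not tested by the authors. The part of shared bases in the value of Itga4 was not tested. Vcam1 and Fn1, its ligands, stood at 10.7 and 8.71 FPKM (-0.29 ± 0.21) and at 122 and 111 FPKM (-0.13 ± 0.22) and did not pass.

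Crest, neuronal and muscle markers were lower in the same Ret null value. Of 10 enteric crest and glial markers 8 fell and 0 rose, and the list summed to 89.5 and 47.2 FPKM, with Ednrb, which did not pass, at 18.8 and 17.5 FPKM. All 8 neuronal markers fell, from a sum of 105 to 51.9 FPKM. Each of the 7 tested skeletal muscle and somite markers fell, and Myf6 was listed at 0 in wildtype. Of 13 macrophage and leukocyte markers 0 passed in the authors' Cuffdiff test, 0 passed at an unadjusted p under 0.05 and 0 with the normal p, and their sums were 114 and 111 FPKM. Of 8 lines for 7 listed erythroid genes, with Hba-a1 on more than 1 line, 3 fell and 1 rose, with sums of 7155 and 4801 FPKM. The part of crest, muscle and blood cells in the fall of Itga4 was not tested.

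Itga9, the relative of Itga4 that binds tenascin-C and osteopontin with beta1, was among the most abundant alpha subunits, at 16.5% and 14.1% of their sum against 4.46% and 2.36% for Itga4. It fell from 21.4 to 17.2 FPKM (-0.31 ± 0.19, q = 0.0245 in the authors' deposited table). Its line on chromosome 9, 118606709 to 118901003, matches the annotated gene exactly. Tnc, which encodes tenascin-C, fell from 24.9 to 13.5 FPKM (-0.89 ± 0.18), and Spp1, which encodes osteopontin, stood at 13.0 and 10.4 FPKM and did not pass.

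Subunits that read the RGD motif of fibronectin, vitronectin and nephronectin went both ways. Itga5, the fibronectin receptor with beta1, rose from 24.6 to 31.98 FPKM (0.38 ± 0.18, q = 0.00206 in the authors' deposited table). Itgav, which pairs with several beta subunits to bind vitronectin and latent TGF-beta, fell from 16.5 to 12.6 FPKM (-0.39 ± 0.17, q = 0.00206 in the authors' deposited table). Itga8, the nephronectin receptor of mesenchyme, fell from 19.4 to 14.9 FPKM (-0.38 ± 0.18, q = 0.00613 in the authors' deposited table). Exons of Itgav and Itga8 share 5.90% and 5.05% of their bases with genes on the other strand, and whether the authors' counting used strand is not stated. In the share of all integrin alpha transcripts, Itga5 took 18.9% in wildtype and 26.2% in Ret null gut, Itgav 12.7% and 10.3%, and Itga8 14.9% and 12.3%. Npnt, the nephronectin gene, stood at 19.6 and 22.03 FPKM and did not pass. Gut mesenchyme and smooth muscle markers, beside the fall of Itga8, were higher: 10 of 11 rose, with sums of 342 and 821 FPKM. Of 8 tested markers of the nephric and gonadal ridge, where Itga8 is also known, 6 fell and 2 rose, and the list summed to 108 and 98.5 FPKM. The part of these cells in the value of Itga8 was not tested.

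Itga2b, which forms the platelet fibrinogen receptor with beta3, stood at 3.95 and 3.49 FPKM (-0.18 ± 0.29) and did not pass. Its partner Itgb3 stood at 5.89 and 5.92 FPKM (0.01 ± 0.21). Of 7 tested megakaryocyte and platelet markers 1, Vwf, fell, and the list of 9 summed to 63.7 and 47.8 FPKM, with Pf4 at 20.7 and 13.7 FPKM. Neither subunit of the platelet receptor was called.

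Of the laminin receptors 1 rose and 0 fell. Itga3, which binds alpha5-containing laminins with beta1 and is typical of epithelia, rose from 16.01 to 20.9 FPKM (0.39 ± 0.18, q = 0.00206 in the authors' deposited table). Itga6, which pairs with beta1 or beta4, stood at 13.2 and 10.8 FPKM (-0.28 ± 0.20) and did not pass (q = 0.0895 in the authors' deposited table). Itga7, the laminin receptor of muscle, stood at 0.407 and 0.254 FPKM and was not tested. The ratio of Itga3 to Itga6 was 1.22 in wildtype and 1.93 in Ret null gut.

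Collagen receptors were scarce. Itga1, Itga2, Itga10 and Itga11 together summed to 7.02 and 5.23 FPKM, against 129.9 and 121.9 FPKM for all integrin alpha subunits. Itga1, the highest of them, stood at 2.47 and 1.64 FPKM (-0.59 ± 0.46) and Itga2, known from platelets and epithelia, at 1.65 and 1.24 FPKM (-0.42 ± 0.39). Itga10, known from cartilage, stood at 1.83 and 1.27 FPKM (-0.53 ± 0.35) and Itga11, known from fibroblasts, at 1.07 and 1.09 FPKM (0.02 ± 0.41). In the authors' Cuffdiff test 0 of 4 passed, 2 were lower at an unadjusted p under 0.05 and 0 passed with the normal p. Across all 13430 tested genes, 1814 were lower and 1331 higher at that unadjusted p. Their main ligands were abundant, with Col3a1 at 401 and 405 FPKM and Col1a2 at 261 and 258 FPKM. Itga1 and Itga2 lie 26.04 kb apart on chromosome 13. The line of Itga1 has the same start and end as that of Pelo, listed at 13.9 and 17.7 FPKM. Of Itga1's exon bases 3.68% are shared with an overlapping annotated transcript on the same strand. The part of other genes in the value of Itga1 was not tested. Of Itga10's exon bases 33.5% are shared with an overlapping annotated transcript on the same strand, so its value is uncertain.

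Leukocyte integrins had low values. Itgal, Itgam and Itgax, which pair with beta2, stood at 0.755 and 0.922, 0.743 and 0.493, and 0.0142 and 0.0264 FPKM, and Itgae, which pairs with beta7, at 0.1003 and 0.162 FPKM. Itgb2 stood at 0.630 and 0.724 FPKM and Itgb7 at 0.378 and 0.713 FPKM. Itgal alone of these was tested, with a log2 fold change of 0.29 ± 0.46 that did not pass. An overlapping annotated transcript on the same strand covers 68.7% of Itgam's exon bases. Macrophage genes such as C1qc (15.5 and 15.5 FPKM) and Tyrobp (14.0 and 13.0 FPKM) were detected at higher levels.

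No beta subunit was called. Itgb1, the partner of most alpha subunits above, was the highest member and stood at 127 FPKM in both genotypes (127.1 and 126.8, log2 fold change 0.00 ± 0.18). Its line on chromosome 8, 128685654 to 128733579, matches the annotated gene. Itgb5, a partner of alphav, stood at 45.1 and 41.8 FPKM (-0.11 ± 0.18). Itgb8, another partner of alphav that takes part in activating latent TGF-beta, stood at 0.973 and 0.569 FPKM (-0.77 ± 0.55, q = 0.123 in the authors' deposited table), and Itgb6 at 0.461 and 0.660 FPKM without a test. In the authors' Cuffdiff test 0 of 5 tested beta subunits passed, 1 (Itgb8) was lower at an unadjusted p under 0.05 and 0 passed with the normal p. At that unadjusted p, 1814 of all 13430 tested genes were lower. Itgb1 and Itgb5 made up 70.0% and 24.8% of the beta sum in wildtype and 71.1% and 23.5% in Ret null gut. The 17 alpha subunits summed to 129.9 and 121.9 FPKM, near the level of Itgb1 alone.

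**Figure D4:**
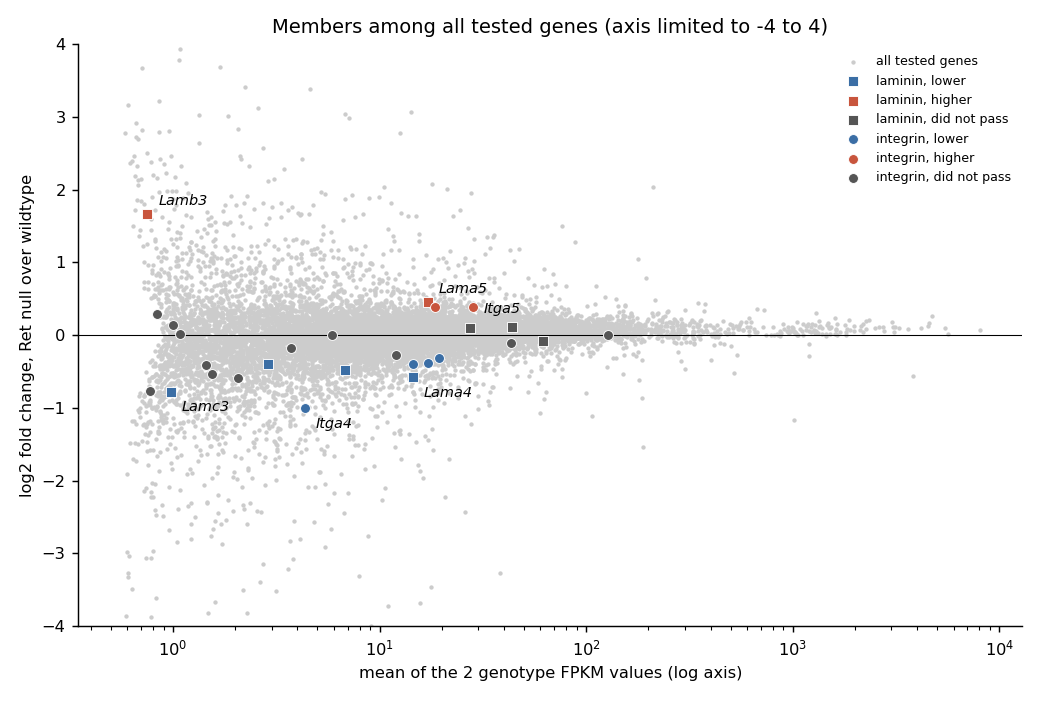
Mean of the wildtype and Ret null FPKM values (log axis) against log2 fold change for all tested genes (grey), with laminin chains as squares and integrin subunits as circles, blue where lower, red where higher and dark grey where not passed. The vertical axis stops at -4 and 4, which leaves out 41 genes. Itgb1 is the farthest right of the members, near 0 change, and Lamb3 is called at a mean of 0.751 FPKM.

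Other proteins of the basement membrane changed in part. Of 33 tested partners of laminin 6 fell, 5 rose and 22 did not pass, with a median log2 fold change of 0.01. Thus 33.3% were called, against 14.6% of all tested genes. Col4a5 and Col4a6, neighbouring genes for minor type IV collagen chains, fell from 19.6 to 11.7 FPKM and from 7.23 to 4.57 FPKM, and Col4a1, the major chain, stood at 82.4 and 82.8 FPKM. Frem1, a matrix protein beneath epithelia, fell from 18.1 to 12.3 FPKM, and Fbln2, which binds laminin and fibronectin, from 36.5 to 26.9 FPKM. Lad1, an epithelial basement membrane gene, rose from 3.00 to 7.42 FPKM, and the calcium-binding Smoc1 from 18.7 to 25.4 FPKM (q = 0.00145 in the authors' deposited table). Sparc and Pxdn, the most abundant of the list, stood at 436 and 398 FPKM and at 83.8 and 83.1 FPKM and did not pass. With the normal p 3 partners were lower and 1 higher, and of all genes 2.78% were lower and 1.72% higher.

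Of 39 tested integrin ligands in matrix and on cells 9 fell, 4 rose and 26 did not pass (median -0.09). Thus 33.3% were called, against 14.6% of all tested genes. Postn, a matrix ligand of alphav integrins, fell from 81.3 to 44.2 FPKM along with Tnc, and L1cam, an adhesion molecule of neurons and crest cells, fell from 4.73 to 1.598 FPKM. Rises took in Cdh1, the E-cadherin gene (10.6 to 22.8 FPKM), and Vtn and Fgb, products of liver (1.17 to 5.69 FPKM and 0.381 to 4.06 FPKM). Cdh1 and Fgb are also in the epithelial and liver marker lists, which rose with them (9 of 10 members in each). With the normal p 5 ligands were lower and 3 higher, and of all genes 2.78% were lower and 1.72% higher.

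Inside the cell, 5 of 50 tested integrin adaptors fell, 6 rose and 39 did not pass (median 0.03). Thus 22% were called, against 14.6% of all tested genes. Falls included those of the kinase Ptk2b, from 3.63 to 1.30 FPKM, and of the linkers Dst, from 5.61 to 3.17 FPKM, and Nedd9, from 11.7 to 7.98 FPKM. Rises included those of Tgfb1i1, a focal adhesion protein of smooth muscle (19.8 to 34.2 FPKM), Actn1, which crosslinks actin (54.7 to 80.2 FPKM), and Fermt1, the kindlin of epithelia (1.84 to 3.17 FPKM). The core adaptors Tln1 and Ilk stood at 40.1 and 42.2 FPKM and at 80.5 and 81.7 FPKM, and the abundant Flna and Cd81 at 207 and 226 FPKM and at 223 and 217 FPKM, and none of these passed. With the normal p 3 adaptors were lower and 2 higher, and of all genes 2.78% were lower and 1.72% higher.

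**Figure D5:**
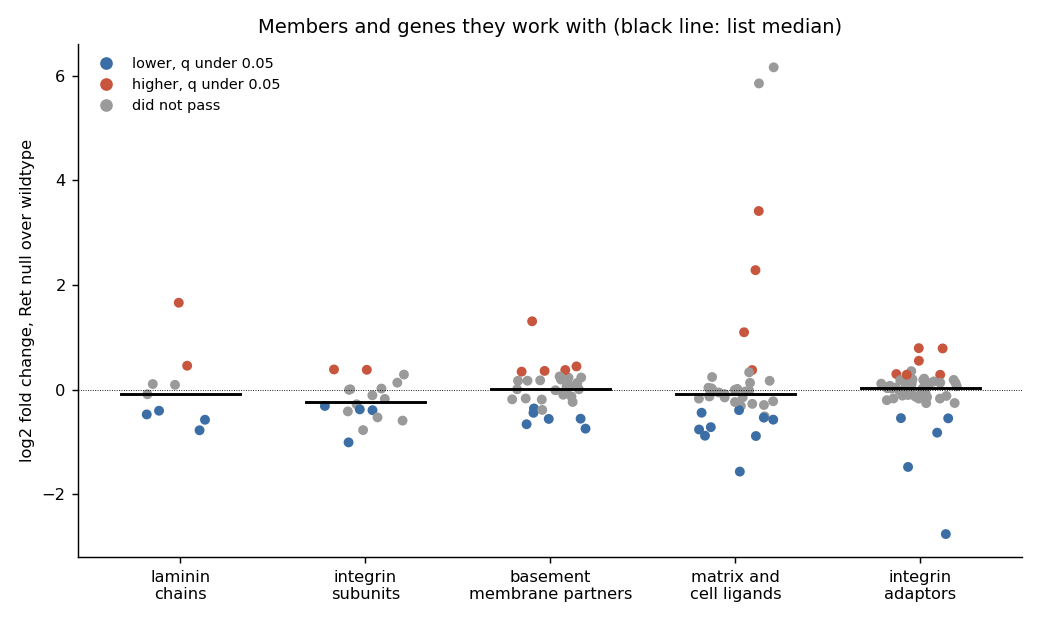
Log2 fold change, Ret null over wildtype, of every tested gene of 5 lists, with the list median as a black line, blue for genes that fell, red for genes that rose and grey for genes that did not pass. All 5 medians lie between -0.23 and 0.03. The grey points near 6 are the fibrinogen genes Fga and Fgg, listed close to 0 in wildtype.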

How the data were processed

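Polyadenylated RNA of dissected guts was sequenced from TruSeq libraries (per the labels' protocols). The submitters' processing notes name mm10 as a build, and Picard, Cufflinks, Cuffdiff and TopHat2 as tools. Versions, settings and gene annotation were not given in the sources used here. In the deposited table stand FPKM values, 1 per genotype, made by the authors from 3 samples each, with the letters w and h read as wildtype and homozygous null. Its p-value and q-value columns and its test statistic, a score per gene, are the authors' results per the file headers. Cuffdiff's p has a lower limit of 5e-05 here, shared by 867 genes. Depth is unknown and no test over samples could be run. Separate litters are not stated, so the authors' p-values may measure technical spread.

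Of 23234 lines 1 held a pair of records run together and was not used. Log2 fold changes were recomputed from FPKM, since part of the deposited column was error text, and the standard error is that change divided by the statistic. Alternatives were q under 0.01 and 0.1, minimum values of 1 and 5 FPKM, a minimum change of 1.5-fold, normal p, and pseudocounts of 1 and 0.1 FPKM. The normal p was tested on simulated data with statistics drawn as standard normal values. That simulation cannot show whether the Cuffdiff statistic is a standard normal value. Overlaps used GENCODE M21 and promoters RefSeq GRCm38.p6; scripts ran in Python 3.11.15 with scipy 1.17.1.

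The members and the gene lists were chosen with earlier results of these data known. All 35 members are named. From each of the 3 companion lists the named genes are up to 6 called by smallest q and then largest change, and the 2 with the highest mean. Marker genes named come from the 2 highest and up to 2 called of each list. Other genes (Vcam1, Fn1, Spp1, Npnt, Col4a1, Tln1, Ilk, Fga, Fgg, Epcam, Tyrobp, Myf6, Cerkl, Pelo and the sex-linked genes) were chosen after their values were seen. Some items are not reported here.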

Additional observations from a re-analysis of the deposited data

How the results depend on the processing

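A pseudocount added to both genotypes cannot reverse a log2 fold change, so that alternative bears on size alone. For Lamb3 the log2 fold change was 1.66 without a pseudocount, 1.43 with 0.1 FPKM and 0.65 with 1 FPKM. The counts of calls moved with the other settings. With a limit of 0.01 on q, the authors' deposited table had 2 laminin chains lower, and with a minimum of 5 FPKM 2 were lower and 1 higher. A minimum change of 1.5-fold left 1 laminin chain lower and 1 higher, 1 integrin subunit lower and 0 higher, 3 basement membrane partners, 8 ligands and 5 adaptors. The normal p left 1 laminin chain lower and 0 higher, 1 integrin subunit lower and 0 higher, 4 basement membrane partners, 8 ligands and 5 adaptors. At an unadjusted normal p under 0.05, 2 laminin chains were lower and 2 higher, and 3 integrin subunits were lower and 2 higher. The other counts stayed within 1.5 times. No paired analysis was possible because the table holds 1 value per genotype, and for the same reason no sample could be left out. Among the tested members the implied standard error was widest for Itgb4 (0.76), Lamb3 (0.56) and Itgb8 (0.55), which had about 1 FPKM or less in both genotypes.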

Other observations

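Itgb1bp2, which encodes melusin, a muscle protein that binds the tail of beta1 integrin, fell from 2.65 to 0.391 FPKM (log2 fold change -2.76 ± 0.75, q = 0.00145 in the authors' deposited table). It was chosen after its value was seen, and it had the largest called change of the adaptor list. The skeletal muscle gene Acta1 stood at 20.4 and 1.54 FPKM in the same table, and the part of muscle cells in the value of Itgb1bp2 was not tested. Minor family genes outside the list were at or near 0, with Itgad listed at 0 in both genotypes and Itgb2l at 0.0562 and 0.0221 FPKM.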
